A study of Mus musculus with 4 samples.

Results

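The proteasome subunit genes of the mouse were followed through the bone marrow of 5TMM mice, a myeloma model in which 5TGM1 cells (a luciferase-tagged murine myeloma line) are injected intravenously into C57BL/KawRij mice. Every gene whose symbol starts with Psma, Psmb, Psmc, Psmd, Psme or Psmf and a number was taken, except the immunoproteasome genes Psmb8, Psmb9 and Psmb10, which gave 43 of the 32285 genes in the count tables. They comprise 8 alpha and 8 beta genes of the 20S core, 6 ATPase and 14 non-ATPase genes of the 19S regulator, 5 activator genes, the inhibitor gene Psmf1, and Psmc3ip, which matches by name alone and encodes a meiotic recombination factor. The groups follow the symbols, so the non-ATPase genes include Psmd5, Psmd9 and Psmd10, which encode chaperones of 19S assembly. The 2 vehicle mice and the 2 mice given purinostat mesylate (PM, an inhibitor of class I and IIb histone deacetylases) at 10 mg/kg carried the same tumor cells, and marrow was taken after 24 h, after lysis of the red cells, with 1 droplet-based 3' single-cell library per mouse. The labels give no age or sex for the mice, the myeloma cells of all 4 mice derive from 1 injected cell line, and the normal plasma cells come from the same tumor-bearing marrow.

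The proteasome is the protease that degrades ubiquitin-tagged proteins in the cytosol and nucleus. Its 20S core is a barrel of alpha and beta rings, in which Psmb5, Psmb6 and Psmb7 carry the constitutive catalytic sites, and the 19S regulator binds, unfolds and feeds in the substrate. Interferon-responsive cells replace the catalytic subunits with Psmb8, Psmb9 and Psmb10 to form the immunoproteasome. Plasma cells secrete large amounts of antibody and send misfolded chains to the proteasome, and Psmb5 is the main target of bortezomib, a standard drug in multiple myeloma.

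The 4 libraries held between 69828595 and 109447030 unique molecular identifiers (UMIs, each counting 1 captured transcript), with a median of 4717 to 6067 per cell over 39743 cells. Cells were clustered without any proteasome gene and named from marker lists. Plasma-like cells were then split by their immunoglobulin genes. Myeloma cells were those led by both Igkv10-96 and Ighg2b, and vehicle mice gave 19 and 27 of them against 84 and 27 from mice on PM. Normal plasma cells were led by another light-chain V gene, and vehicle mice gave 38 and 52 of them against 79 and 45 from mice on PM. The other 73 of the 444 plasma-like cells were assigned to neither. Levels are given as CPM, the UMIs of a gene per 1000000 non-immunoglobulin UMIs of all cells of a type in a mouse. All 10 plasma cell markers were detected in the normal plasma cells of every mouse. In the myeloma cells 9 of the 10 were detected in every mouse and the other, Tnfrsf17, in 2 of the 4. Their summed level was 2167 to 4608 CPM in myeloma cells and 103595 to 165509 CPM in normal plasma cells, where Jchain made up most of it. The name myeloma therefore rests on the immunoglobulin genes and not on a full set of plasma cell markers. Between 18 and 41 cell barcodes were shared by each pair of libraries. Immunoglobulin genes took 4.03% to 5.10% of UMIs in myeloma cells and 47.6% to 56.3% in normal plasma cells.

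Transcripts of the proteasome subunit genes were more abundant in myeloma cells than in the other 11 named cell types of the marrow. Their summed level in myeloma cells was 9038 and 10325 CPM with vehicle and 10922 and 11991 CPM with PM, a mean of 10569 ± 1232 CPM (SD, n = 4 mice). Monocytes and their progenitors came next with 6349 ± 93 CPM, followed by erythroid cells with 6333 ± 364 CPM, and neutrophils were lowest with 2057 ± 124 CPM. The lowest myeloma value lay above the highest value of every other named type and above the 7 unnamed clusters, which held 2524 to 5689 CPM. With immunoglobulin genes kept in the totals, normal plasma cells had the lowest mean, at 1971 CPM against 2056 CPM in neutrophils. They then lay below neutrophils in both vehicle mice and above them in both PM mice.

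**Figure D1:**
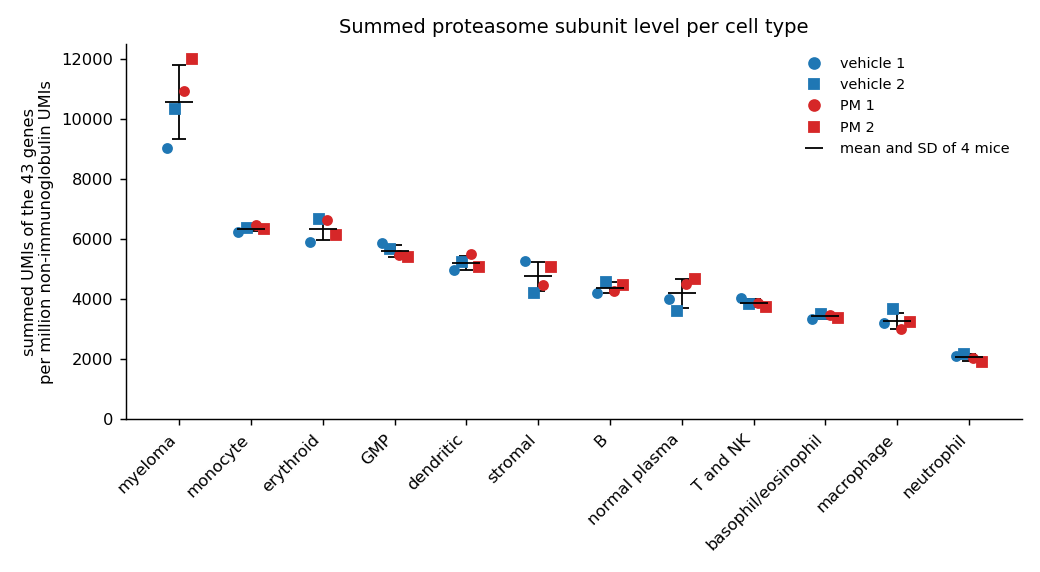
Summed UMIs of the 43 proteasome subunit genes in CPM (vertical axis) in each of 12 cell types (horizontal axis, GMP being granulocyte-monocyte progenitors), with 1 symbol per mouse and the mean and SD of the 4 mice in black. The 4 myeloma values, from 9038 to 11991, lie above those of all other types, and normal plasma cells, at 3599 to 4670, sit in the lower part of the order.

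In the order of the remaining types, monocytes and erythroid cells did not differ beyond the spread of the mice, with monocytes higher in 2 of 4 mice. Granulocyte-monocyte progenitors (5598 ± 204 CPM) lay below erythroid cells in all 4 mice, with ranges that did not overlap. From there down, granulocyte-monocyte progenitors, dendritic cells (5191 ± 232 CPM), stromal cells (4755 ± 493), B cells (4386 ± 175), normal plasma cells (4194 ± 486) and T and NK cells (3878 ± 126) formed a sequence in which each neighbor overlapped the next. T and NK cells stood above basophils and eosinophils (3421 ± 84) in every mouse. Macrophages (3281 ± 271) overlapped with the latter, and neutrophils were below them in every mouse. The macrophage and stromal clusters were shallow, with medians of 770 and 852 UMIs per cell, and the latter also carried the platelet genes Pf4 and Ppbp among its leading genes.

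By the mean of the 4 mice, 28 of the 43 genes were highest in myeloma cells and 36 were lowest in neutrophils. For 21 genes every myeloma value exceeded every value of every other type. They include 5 of the 8 alpha genes, 6 of the 8 beta genes, 4 of the 6 ATPases and 6 of the 14 non-ATPase genes, and no activator. Erythroid cells had the highest mean for 8 genes, among them Psmc3, Psmc6, Psmd6 and Psme3. Dendritic cells had the highest mean of Psme1 and Psme2, which encode the PA28 activator that favors the release of antigenic peptides.

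The difference from normal plasma cells was not carried by a few myeloma cells. In each mouse the lower quartile of single myeloma cells (7191 to 9455 CPM) lay above the upper quartile of single normal plasma cells (3961 to 4924 CPM). Single myeloma cells ranged from 4137 to 17889 CPM, and single normal plasma cells from 984 to 11050 CPM. At a limit of 5000 CPM, chosen after the values were seen, 156 of 157 myeloma cells and 35 of 214 normal plasma cells lay above it. By mouse these were 19 of 19, 27 of 27, 83 of 84 and 27 of 27 myeloma cells. Among normal plasma cells they were 5 of 38, 5 of 52, 15 of 79 and 10 of 45. The limit lay below the mean level of some other types, such as monocytes (6349 CPM), so it compares the plasma cell groups only.

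Myeloma cells were compared with normal plasma cells of the same mice to ask how the malignant cells differ from their normal counterpart in this machinery. The summed level was 2.53 ± 0.26 times as high in myeloma cells (mean ± SD of the ratios in 4 mice), with ratios of 2.25 and 2.87 under vehicle and 2.43 and 2.57 under PM. These ratios are of CPM without TMM scaling. Jchain stayed in the totals, at 91322 to 154020 CPM in normal plasma cells and 121 to 2522 CPM in myeloma cells, which lowers the other CPM values of normal plasma cells. With immunoglobulin genes kept in the totals the ratio was 5.19 ± 0.89. The 20S genes were 2.73 ± 0.29 times and the 19S genes 2.78 ± 0.41 times as high, whereas Psme1 and Psme2 together were 1.22 ± 0.19 times as high. Per cell, myeloma cells held 393 ± 90 UMIs of the 43 genes and normal plasma cells 40.3 ± 6.9. The median of all UMIs per cell, immunoglobulin genes included, was 29625 to 40933 in myeloma cells and 15162 to 22566 in normal plasma cells. Immunoglobulin genes took 4.03% to 5.10% of the UMIs of the former and 47.6% to 56.3% of the latter.

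Of the 41 genes that passed the filter on low counts, 32 rose and 2 fell in myeloma cells (edgeR quasi-likelihood test with the mouse as a block, Benjamini-Hochberg adjusted p under 0.05 and an absolute log2 fold change over 0.5). Over all 8053 genes tested, 27.2% were higher and 26.8% were lower, so that this contrast moved much of the transcriptome. The median log2 fold change was 1.15 for the proteasome subunit genes and 0.04 for all genes tested. Without TMM scaling the median of all genes moved to 0.29 and that of the members to 1.41. By role, 7 of 7 alpha genes, 6 of 7 beta genes, 5 of 6 ATPases, 12 of 14 non-ATPase genes and 1 of 5 activators rose.

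**Figure D2:**
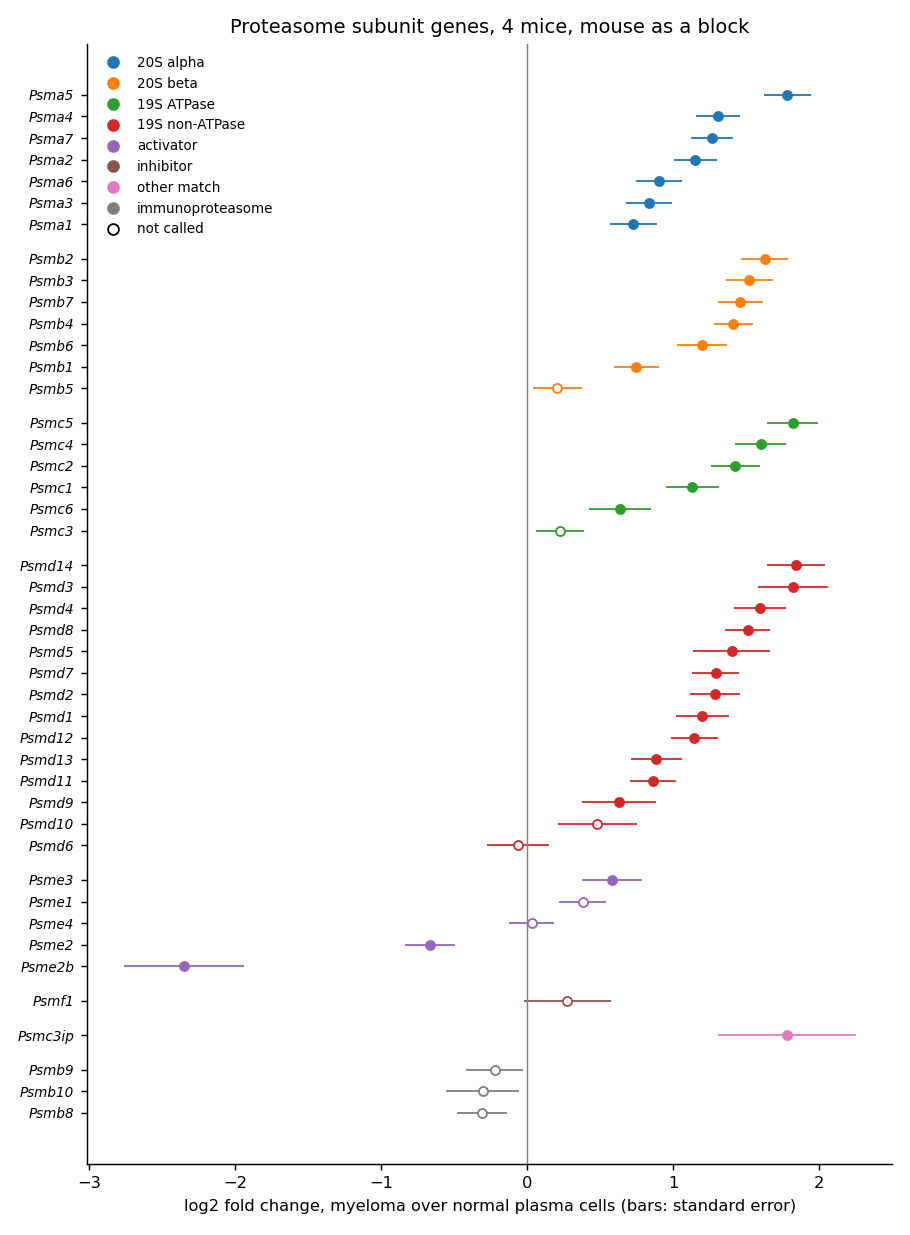
Log2 fold change of myeloma over normal plasma cells (horizontal axis) for each of the 41 proteasome subunit genes tested and the 3 immunoproteasome genes, grouped by role (colors), with standard errors as bars and open symbols for genes not called. Core and regulator genes lie almost all to the right of 0, up to 1.84 for Psmd14, whereas Psme2b and Psme2 lie to the left at -2.35 and -0.66.

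Of the constitutive catalytic subunits, Psmb6 and Psmb7 rose and Psmb5 was not called. Psmb6 (chr11:70525367-70527858, GRCm38), the caspase-like subunit, was at 274, 358, 425 and 389 CPM in the myeloma cells of vehicle mice 1 and 2 and PM mice 1 and 2, and at 142, 113, 147 and 122 CPM in their normal plasma cells. The ranges did not overlap, and the log2 fold change was 1.20 ± 0.17 (SE, edgeR adjusted p = 6.6e-05). Psmb7 (chr2:38588036-38644087), the trypsin-like subunit, was at 300, 313, 333 and 398 CPM against 80.4, 89.2, 113 and 126 CPM. Its ranges did not overlap either, with a log2 fold change of 1.46 ± 0.15 (edgeR adjusted p = 6.2e-06).

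Psmb5 (chr14:54614119-54618022), the chymotrypsin-like subunit, was at 187, 224, 230 and 186 CPM in myeloma cells and at 149, 126, 157 and 167 CPM in normal plasma cells. Every myeloma value lay above every normal value, but the difference was small beside that of the other genes, with a log2 fold change of 0.21 ± 0.17 (edgeR adjusted p = 0.30). Psmb5 was not called under any of the 15 alternatives run, where its log2 fold change was 0.07 to 0.47. A difference between Psmb5 and the other beta genes was not tested.

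Promoters are shown for Psmb6 and Psmb5, a core gene that rose and one that was not called, and for Psmd14, the member with the largest rise. Each line gives the 250 bases upstream of the RefSeq transcription start on the sense strand (GRCm38.p6), and capitals mark TGACNNNGC (the core of the antioxidant response element, the known site of the proteasome gene activator Nfe2l1) and CCAAT, each searched on both strands. The windows are chr11:70525107-70525356 on the plus strand, chr14:54617996-54618245 on the minus strand and chr2:61711444-61711693 on the plus strand.
Psmb6: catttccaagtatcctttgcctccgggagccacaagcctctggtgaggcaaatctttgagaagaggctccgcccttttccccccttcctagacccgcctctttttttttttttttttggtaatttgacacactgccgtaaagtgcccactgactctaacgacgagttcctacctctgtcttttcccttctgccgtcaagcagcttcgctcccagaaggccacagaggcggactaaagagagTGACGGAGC
Psmb5: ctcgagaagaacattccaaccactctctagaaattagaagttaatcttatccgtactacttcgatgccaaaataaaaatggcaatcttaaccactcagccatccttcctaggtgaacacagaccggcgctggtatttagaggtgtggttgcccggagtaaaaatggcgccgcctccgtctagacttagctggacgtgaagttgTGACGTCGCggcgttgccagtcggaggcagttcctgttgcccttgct
Psmd14: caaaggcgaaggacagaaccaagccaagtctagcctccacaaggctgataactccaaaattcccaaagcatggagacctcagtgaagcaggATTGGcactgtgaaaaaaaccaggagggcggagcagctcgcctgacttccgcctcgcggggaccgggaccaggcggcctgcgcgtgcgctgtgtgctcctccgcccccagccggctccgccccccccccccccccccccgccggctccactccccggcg

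Both Psmb6 and Psmb5 hold TGACNNNGC in this window, close to the start, and Psmd14 holds CCAAT on the opposite strand. Of the 36 members with a promoter in the RefSeq table, 5 held TGACNNNGC (13.9%, against 10.1% of all 27025 promoters), namely Psmb5, Psmb6, Psmc6, Psmd12 and Psmd9. CCAAT was present in 14 of the 36 (38.9%, against 34.5% of all promoters).

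Of the 6 members with the largest rise, 5 encode subunits, from both the core and the 19S regulator. Psmd14 (chr2:61711694-61800376), the deubiquitinase of the 19S lid, was at 156, 158, 152 and 246 CPM in myeloma cells and at 48.2, 23.9, 36.5 and 58.5 CPM in normal plasma cells, a log2 fold change of 1.84 ± 0.20 (edgeR adjusted p = 7.2e-06). Psmd3 (chr11:98682554-98695979), a lid scaffold, was at 156, 197, 208 and 192 CPM against 62.0, 26.1, 63.8 and 29.3 CPM, a log2 fold change of 1.82 ± 0.24 (edgeR adjusted p = 3.8e-05). In neither gene did the ranges overlap.

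Psmc5 (chr11:106256154-106263120), an ATPase of the 19S base, was at 151, 159, 188 and 228 CPM against 34.5, 32.6, 48.6 and 56.3 CPM, a log2 fold change of 1.82 ± 0.18 (edgeR adjusted p = 3.1e-06). Psma5 (chr3:108256926-108279974), of the outer alpha ring, was at 306, 374, 414 and 486 CPM against 64.3, 93.5, 122 and 104 CPM, a log2 fold change of 1.78 ± 0.16 (edgeR adjusted p = 1.5e-06). Psmb2 (chr4:126677630-126709714), a noncatalytic beta subunit, was at 201, 259, 307 and 270 CPM against 57.4, 67.4, 85.1 and 69.8 CPM, a log2 fold change of 1.63 ± 0.16 (edgeR adjusted p = 3.5e-06). These 5 genes were at least 3.09-fold higher by the fit, and each of them was called under all 15 alternatives. Psmc3ip, the match by name alone, rested on 2 or 3 UMIs in the normal plasma cells of each mouse and on 10 to 54 in the myeloma cells, with a log2 fold change of 1.78 ± 0.47 (edgeR adjusted p = 0.0058).

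The other called alpha, beta and 19S genes rose by 0.63 (Psmd9) to 1.60 (Psmd4 and Psmc4) on the log2 scale. The most abundant member was Psma7, an alpha subunit, at 677 to 1007 CPM in myeloma cells and 259 to 398 CPM in normal plasma cells. Next to it stood Psmb4, a noncatalytic beta subunit, at 789 to 922 CPM against 228 to 286 CPM. Not called among the core and regulator genes, besides Psmb5, were Psmc3 (log2 fold change 0.23), Psmd10 (0.48) and Psmd6 (-0.06). Psma8, an alpha subunit of the testis, and Psmb11, the beta subunit of the thymus, were too low to be tested. Psma8 had 2 UMIs in the myeloma cells of all mice together and 23 to 72 per mouse in granulocyte-monocyte progenitors, and Psmb11 had 1 UMI in all named cells.

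**Figure D3:**
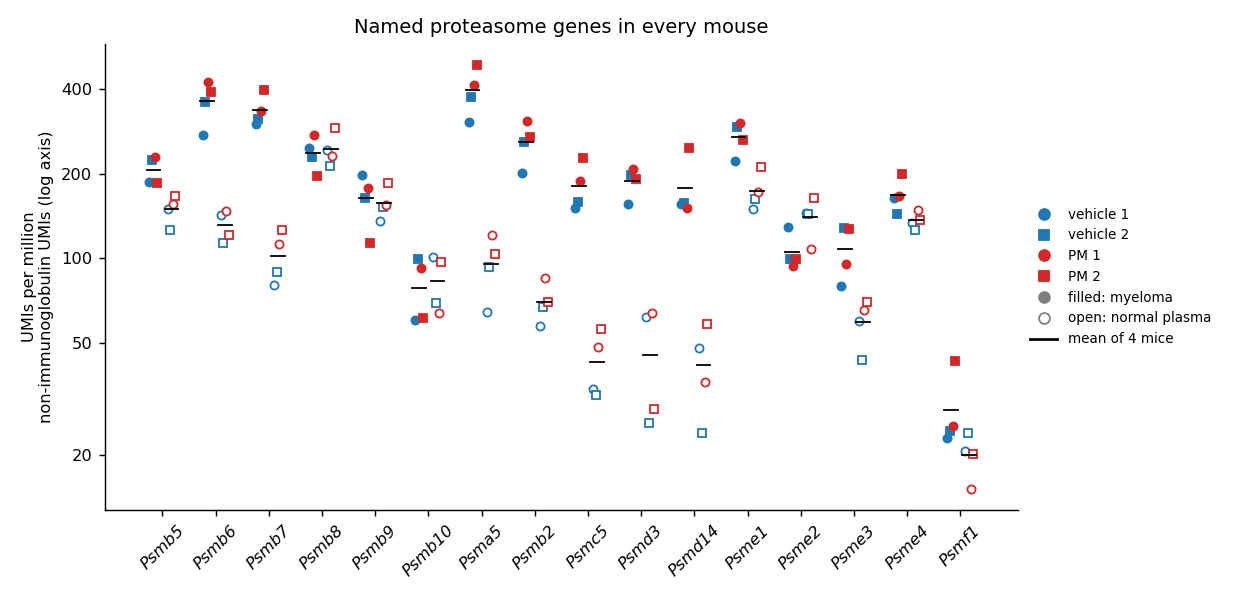
Level in CPM (vertical axis, log scale) of 13 named proteasome subunit genes and the 3 immunoproteasome genes (horizontal axis) in myeloma cells (filled) and normal plasma cells (open), with 1 symbol per mouse and a line at the mean of 4 mice. The groups lie apart for Psmb6, Psmb7, Psma5, Psmb2, Psmc5, Psmd3 and Psmd14, and overlap for Psmb8, Psmb9 and Psmb10.

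Of the 5 activator genes, 1 rose, 2 fell and 2 were not called, where 27.2% of all genes tested rose and 26.8% fell. Psme2 (chr14:55587441-55591113), a PA28 subunit, was at 130, 99.5, 93.8 and 99.5 CPM in myeloma cells and at 145, 144, 108 and 164 CPM in normal plasma cells. It was lower in myeloma cells in 4 of 4 mice, though the ranges overlapped, and fell by 0.66 ± 0.17 on the log2 scale (edgeR adjusted p = 0.0049). The fall was not called without TMM scaling (edgeR adjusted p = 0.051) or without cycling cells (log2 fold change -0.49).

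Its partner Psme1 (chr14:55578123-55581529), of the same PA28 ring, was at 222, 294, 303 and 264 CPM against 149, 163, 172 and 212 CPM. The ranges did not overlap, but the log2 fold change of 0.38 ± 0.16 was not called (edgeR adjusted p = 0.058). It was called higher without TMM scaling (0.64, edgeR adjusted p = 0.0030) and without called doublets (0.51, edgeR adjusted p = 0.0085). Psme2b (chr11:48945354-48946190), a copy of Psme2 whose reads may be split with it, was at 14.2, 3.37, 16.2 and 15.3 CPM against 25.3, 71.8, 53.2 and 56.3 CPM, and fell by 2.35 ± 0.41 on the log2 scale (edgeR adjusted p = 0.00068).

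Psme3 (chr11:101316213-101323537), the nuclear PA28 gamma, was at 79.9, 128, 95.8 and 127 CPM against 59.7, 43.5, 65.4 and 69.8 CPM and rose by 0.58 ± 0.21 (edgeR adjusted p = 0.028), a call that 8 of the 15 alternatives did not keep. Psme4 (chr11:30771726-30880361), the PA200 activator of the nucleus, was at 164, 144, 166 and 200 CPM against 133, 126, 149 and 137 CPM, with a log2 fold change of 0.03 ± 0.15 (edgeR adjusted p = 0.87). The inhibitor Psmf1 (chr2:151715812-151744186) was low in both, at 23.1, 24.5, 25.3 and 43.04 CPM against 20.7, 23.9, 15.2 and 20.3 CPM, and was not called (0.28 ± 0.30, edgeR adjusted p = 0.45).

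The immunoproteasome genes did not share the rise of the constitutive core. Psmb8 was at 247, 229, 274 and 196 CPM in myeloma cells and at 244, 213, 231 and 290 CPM in normal plasma cells. Psmb9 was at 197, 164, 179 and 114 CPM against 136, 152, 155 and 185 CPM. Psmb10 was at 60.4, 99.5, 92.1 and 61.2 CPM against 101, 69.6, 63.8 and 96.8 CPM. The groups overlapped for all 3 genes, and none was called, with log2 fold changes of -0.31, -0.22 and -0.30 (edgeR adjusted p = 0.15, 0.36 and 0.33). The sign for Psmb9 turned to 0.038 without TMM scaling.

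Set against the constitutive gene whose place it takes, the immunoproteasome share was lower in myeloma cells in every mouse. Psmb10 made up 16.7%, 24.1%, 21.7% and 13.3% of the UMIs of Psmb10 and Psmb7 in myeloma cells and 55.7%, 43.8%, 36.2% and 43.4% in normal plasma cells, a difference of -25.8 ± 10.9 percentage points. Psmb9 against Psmb6 differed by -23.0 ± 12.7 points, and Psmb8 against Psmb5 by -8.7 ± 4.1 points, each lower in 4 of 4 mice. An exact sign-flip test over the 4 mice gave a two-sided p of 0.125 for each pair, the smallest that 4 pairs allow, and adjustment over the 3 pairs leaves it at 0.125.

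**Figure D4:**
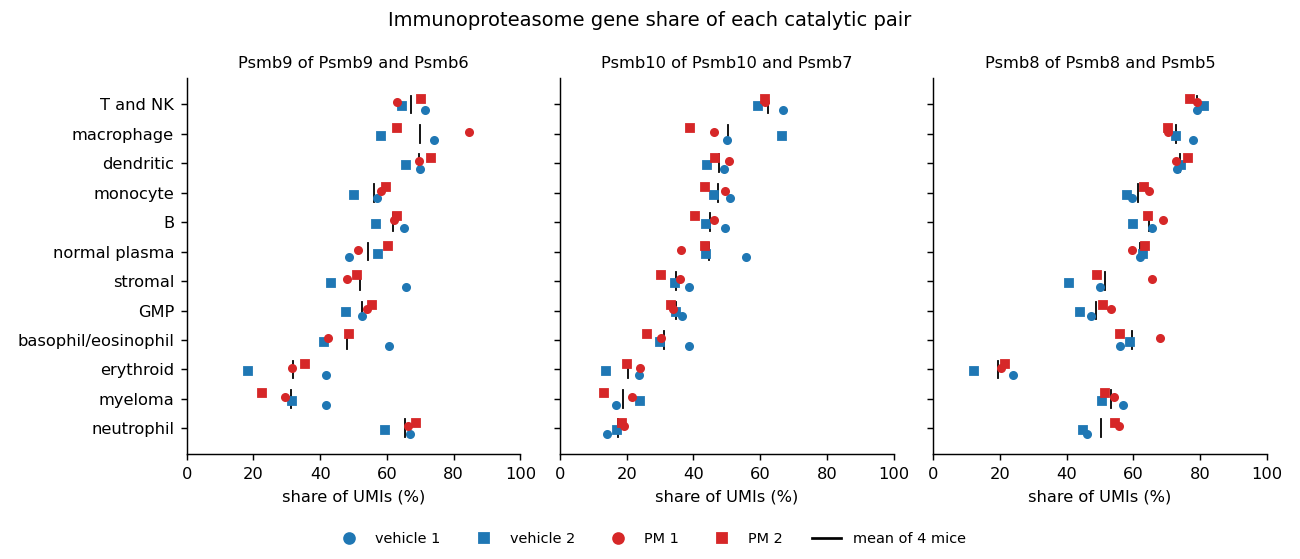
Share of the immunoproteasome gene in the UMIs of each catalytic pair (horizontal axes, percent) by cell type (vertical axis, GMP being granulocyte-monocyte progenitors), with 1 symbol per mouse and a line at the mean of 4 mice. For Psmb10 and Psmb7, myeloma cells (13.3% to 24.1%) lie near neutrophils (14.1% to 19.2%) and erythroid cells, and normal plasma cells (36.2% to 55.7%) near B cells.

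Across the marrow, the share of Psmb10 was 62.3% ± 3.2 in T and NK cells, 47.5% ± 3.4 in monocytes, 44.9% ± 3.9 in B cells, 44.8% ± 8.1 in normal plasma cells and 20.4% ± 4.8 in erythroid cells (SD, n = 4 mice). Myeloma cells (18.97% ± 4.855) and neutrophils (17.3% ± 2.3) had the lowest means, and their ranges overlapped with each other and with that of erythroid cells. The order differed for the other pairs. In neutrophils Psmb9 made up 65.3% ± 4.0 of the UMIs of Psmb9 and Psmb6.

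The partners of the proteasome followed it to different degrees, in a contrast where 27.2% of all genes tested rose and 26.8% fell. Of 6 further genes of proteasome assembly and nuclear import tested, 4 rose, led by Psmg2, a chaperone of the alpha ring, with a log2 fold change of 1.65 ± 0.20 (edgeR adjusted p = 1.7e-05). Of 13 receptor and accessory genes, 7 rose and none fell, led by Txnl1, a thioredoxin of the 19S regulator (1.76 ± 0.15, edgeR adjusted p = 1.0e-06), and including the ubiquitin receptor Adrm1 (1.52) and the deubiquitinase Usp14 (1.39).

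The transcription factor Nfe2l1 raises proteasome gene transcription when the proteasome is blocked. Of the 5 tested genes around it, Mafg rose (0.78), and Ngly1 and Ddi2, which process the factor, fell by 2.58 and 0.64 on the log2 scale. Over all genes tested, 27.2% rose and 26.8% fell. The call of Mafg was lost without PM mouse 2 (0.62, edgeR adjusted p = 0.053) and in vehicle mice only (0.41, edgeR adjusted p = 0.30). Nfe2l1 itself was at 0.04 ± 0.21.

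Genes of p97 and of degradation from the endoplasmic reticulum (ERAD), which delivers misfolded secretory proteins to the proteasome, went the other way. Of 16 tested, 10 fell and 2 rose, with a median log2 fold change of -0.94, beside 26.8% lower and 27.2% higher over all genes tested. Derl3, a channel component of secretory cells, was at 1.78, 1.69, 0.67 and 0.96 CPM in myeloma cells, from 1 or 2 UMIs per mouse, and at 411, 628, 391 and 529 CPM in normal plasma cells. Herpud1, Syvn1 and Edem1 fell by 5.03, 2.09 and 1.87, while Vcp, the p97 ATPase itself, was at 0.12 ± 0.13.

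Cycling and neutrophil transcripts differed between the plasma cell groups. Cells with over 1 per mille of their UMIs in 16 cell cycle genes made up 47.4%, 51.9%, 41.7% and 29.6% of myeloma cells and 1.92% to 5.26% of normal plasma cells, and all 16 genes rose. Myeloma cells at or under that limit still held 9449, 10561, 11733 and 11529 CPM of the proteasome subunit genes, and without cycling cells 29 members were called higher. Neutrophil genes took 1.25 to 15.6 per mille of UMIs in myeloma cells and 6.18 to 27.0 per mille in normal plasma cells. Without cells over 10 per mille, 29 members were called higher and the median log2 fold change was 1.03. In the main fit 27.2% of all genes tested were called higher. Neither count of 29 was set against the share of all genes in its own fit.

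PM was compared with vehicle within each of 12 cell types, 24 h after treatment. No proteasome subunit gene was called in 11 of the 12 types by edgeR. DESeq2 called none in any of the 12 types. Over the 430 tests of members in the 11 types without an edgeR call, 10 were higher and 25 lower at an unadjusted p under 0.05. These counts were not set against those of all genes. This balance turned without TMM scaling, with 16 higher and 4 lower, and with 1 mouse left out it ran from 14 higher and 17 lower (vehicle mouse 2) to 5 higher and 39 lower (PM mouse 1). Of all genes tested, 0.374% were called in myeloma cells, 0% in normal plasma and stromal cells, 5.74% in neutrophils, 0.771% in granulocyte-monocyte progenitors, 2.07% in monocytes and 1.46% in T and NK cells. The share was 0.918% in dendritic cells, 1.03% in macrophages, 0.228% in erythroid cells, 0.138% in basophils and eosinophils and 6.41% in B cells. With 2 mice a group, an exact permutation test cannot go below a p of 0.333, so differences of summed levels are given without a test.

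In myeloma cells the summed level was 9038 and 10325 CPM with vehicle and 10922 and 11991 CPM with PM, higher in both PM mice than in both vehicle mice. The log2 fold change was above 0 for 34 of 41 members, with a median of 0.21 against 0.00 for all genes tested. The median was 0.11 without vehicle mouse 1 and 0.32 without vehicle mouse 2. Psmd11, a lid subunit, and Psme2b had an unadjusted p under 0.05, with log2 fold changes of 0.41 and 1.11 (edgeR adjusted p = 0.54 and 0.53). The cell cycle list was at 2.90 and 2.57 per mille of non-immunoglobulin UMIs with vehicle and 1.92 and 1.62 with PM, and without cycling cells the median of the members was 0.23. Neutrophil genes were at 1.32 and 4.19 against 16.4 and 1.75 per mille, and without cells holding them the median was 0.21.

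Normal plasma cells gave similar values without a call. Their summed level was 4008 and 3599 CPM with vehicle and 4501 and 4670 CPM with PM, 27 of 37 members had a log2 fold change above 0, and the median was 0.21. It was 0.05 when the plasma cells were split by cluster and not by immunoglobulin genes. The alpha subunits Psma1 (0.58) and Psma3 (0.49) had an unadjusted p under 0.05. The effect of PM did not differ detectably between myeloma and normal plasma cells. In the test of the interaction, 0 of 41 members were called against 0.112% of 8053 genes, none had an unadjusted p under 0.05, DESeq2 called none, and the median difference was -0.02. The members with the largest estimates were Psme2b (1.10 ± 0.81), Psmf1 (0.89 ± 0.58) and Psmd6 (0.73 ± 0.39), with edgeR adjusted p = 0.81, 0.77 and 0.70.

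**Figure D5:**
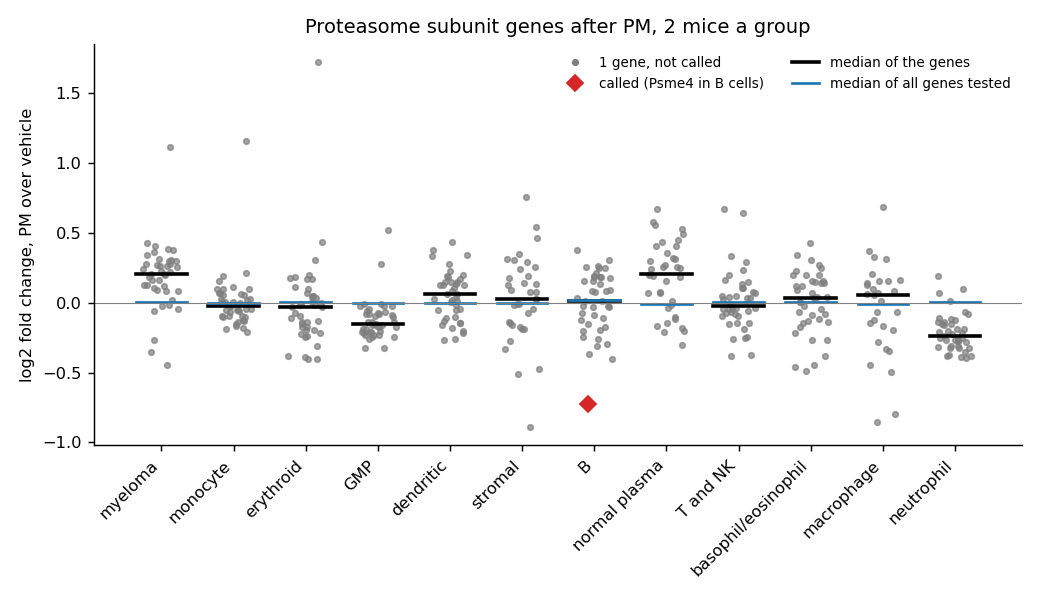
Log2 fold change of PM over vehicle (vertical axis) of each proteasome subunit gene tested (points) in 12 cell types (horizontal axis, GMP being granulocyte-monocyte progenitors), with the median of these genes (black line) and of all genes tested (blue line). The medians are 0.21 in myeloma and normal plasma cells and -0.24 in neutrophils, and the only called gene is Psme4 in B cells.

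Neutrophils and their precursors lay on the other side of 0. In neutrophils the summed level was 2110 and 2185 CPM with vehicle and 2039 and 1894 CPM with PM, and 37 of 41 members had a log2 fold change below 0, with a median of -0.24 against 0.01 for all genes. None was called, against 5.74% of all genes tested in either direction. The number of members at an unadjusted p under 0.05 was not set against that of all genes. It was 15, with 5 of them among the 6 ATPases. That number was 3 without TMM scaling, where the median of all genes moved to 0.094, and 6, 7 and 24 without vehicle mouse 1, PM mouse 2 and PM mouse 1. The ATPase Psmc3 was at 58.5 and 60.4 CPM with vehicle and 49.2 and 47.6 CPM with PM (log2 fold change -0.38 ± 0.10, edgeR adjusted p = 0.068), and the scaffold subunit Psmd1 at 36.4 and 38.4 against 30.8 and 29.5 CPM (-0.39 ± 0.11, edgeR adjusted p = 0.067). For both genes the PM mice lay below the vehicle mice.

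The neutrophil clusters differed in level and in makeup. The cluster with the most cell cycle transcripts, led by Camp, Ngp and Chil3, was at 2938 ± 55 CPM, and the clusters led by Il1b and Cstdc4 and by Retnlg and Prok2 were at 1397 ± 260 and 1467 ± 156 CPM. In the Il1b cluster the level was 1543 and 1681 CPM with vehicle and 1250 and 1116 CPM with PM. In the Retnlg cluster it was 1565 and 1631 against 1364 and 1307 CPM. The cluster led by Ltf, Ngp, Camp and Orm1 did not separate the groups, at 2361 and 2444 against 2439 and 2368 CPM. PM mice had a smaller share of their neutrophils in the Il1b cluster (25.3% and 28.1% against 29.0% and 31.5%) and a larger share in the cluster led by Ltf and Mmp8 (30.4% and 29.5% against 23.9% and 22.6%). Their share in the Ltf, Ngp, Camp and Orm1 cluster was smaller as well (9.01% and 9.24% against 11.9% and 13.2%). The part of this makeup in the summed level was not tested.

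In granulocyte-monocyte progenitors the summed level was 5862 and 5655 CPM with vehicle and 5459 and 5418 CPM with PM. All but 2 of the 42 members tested had a log2 fold change below 0, and the median was -0.15. None was called, against 0.771% of all genes tested in either direction. At an unadjusted p under 0.05, a count not set against all genes, 6 were lower, including the ATPases Psmc2 (-0.32) and Psmc6 (-0.32). The 6 became 0 without TMM scaling, 2 with the replicate block, and 1, 3 and 11 without vehicle mouse 1, vehicle mouse 2 and PM mouse 1. All 3 progenitor clusters were lower in both PM mice than in both vehicle mice. The cluster led by Mpo and Elane with Cd34, for example, was at 7261 and 7113 CPM with vehicle and at 6379 and 6531 CPM with PM. The makeup differed too, since the cluster with the lowest level, led by Fcnb and Elane (3270 to 3616 CPM), held 43.1% and 41.2% of the progenitors with vehicle and 27.8% and 29.1% with PM. Cell cycle transcripts were also lower in the PM mice, at 2.53 and 2.61 against 3.01 and 2.76 per mille of non-immunoglobulin UMIs, and their part in the difference was not tested.

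The only member called after PM was Psme4 in B cells, where 3.12% of all genes were called lower. It was at 104 and 170 CPM in the B cells of the vehicle mice and at 84.4 and 89.9 CPM with PM, a fall of 0.72 ± 0.18 on the log2 scale (edgeR adjusted p = 0.022). The edgeR call was lost with DESeq2 (adjusted p = 0.24), without called doublets (0.071), without PM mouse 1 (0.052) and without vehicle mouse 2 (0.72, log2 fold change -0.26). B cells of vehicle mouse 2 also differed in makeup, with 55.9% in the cluster led by Ms4a1, Ebf1 and Cd79a with Vpreb3, against 27.9% to 34.3% in the other mice. Within that cluster Psme4 was at 151 and 247 CPM with vehicle and 105 and 101 CPM with PM, and in the Vpreb1 and Igll1 cluster at 119 and 140 against 56.8 and 69.0 CPM. In the cluster led by Ighd and Fcer2a it was at 62.8 and 76.1 CPM with vehicle and 86.2 and 97.6 CPM with PM.

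In the remaining types the medians of the members stayed between -0.03 and 0.06 on the log2 scale, and in none of them did both PM mice lie on the same side of both vehicle mice in the summed level.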

How the data were processed

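The authors aligned and counted the reads of each library with Cell Ranger (version 6.0.1 per the file headers), and the deposited values are raw UMI counts per gene and cell barcode. The study's text names GRCm38, while the submitters' processing notes list GRCm39, so the coordinates (GRCm38) only place the genes. From the counts, 39743 of 41393 barcodes were kept (at least 300 genes, at most 20% mitochondrial). Cells were clustered with scanpy 1.11.5 (2500 variable genes without proteasome genes, 30 components, 15 neighbors, Leiden resolution 1) into 30 clusters, of which 7 stayed unnamed (4.41% to 6.16% of cells per library). Doublets were scored and the top 6.59% to 11.1% called, at 0.8% per 1000 barcodes. Clusters with over 50% called doublets stayed unnamed, and unnamed cells entered no fit. Called doublets among the named cells were kept except in 1 alternative. Cells are not replicates, so the UMIs of all cells of a type in a mouse were added up, leaving out 392 immunoglobulin genes. These sums were tested with edgeR 4.0.16 in R 4.3.3 (quasi-likelihood, TMM, low counts filtered, Benjamini-Hochberg), with the mouse as a block between plasma cell groups and in the interaction, and with DESeq2 1.42.0 as an alternative. A gene was called at an adjusted p under 0.05 and an absolute log2 fold change over 0.5. In the PM comparisons a p-value sets the difference against the spread between mice of a group. Between plasma cell groups and in the interaction, with the mouse as a block, the spread used is that of differences within mice. In all fits edgeR moderated the variance across genes.

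The genes named are the catalytic, activator, inhibitor and immunoproteasome genes, the 6 members with the largest called rise, those called lower, and the leading genes of each partner list, of which some are not reported here. The members and lists were chosen with earlier results of these data known. Alternatives were DESeq2, no TMM scaling, no filter on low counts, immunoglobulin genes kept, no doublets, cells split by cluster, no cycling cells, no cells with neutrophil transcripts, mice of 1 treatment, each mouse left out, and the replicate block. The edgeR and DESeq2 fits were tested on simulated counts for myeloma against normal plasma cells and for PM in myeloma cells and in neutrophils. The clustering, the naming of cells, the doublet calls and the interaction were not tested in this way. Promoters are from RefSeq.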

Additional observations from a re-analysis of the deposited data

Results flagged for a closer look

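The cell types listed here were picked because both PM mice lay on the same side of both vehicle mice in the summed level. The remaining types showed no such separation. With so few mice, an exact permutation test cannot go below a p of 0.333, so separations of this kind arise often by chance. The direction varied among the types picked, which does not establish a difference between cell types. The log2 ratio of the PM mean to the vehicle mean was 0.24 in myeloma cells and 0.27 in normal plasma cells, where both PM mice lay above both vehicle mice. It was -0.13 in neutrophils and -0.082 in granulocyte-monocyte progenitors, where both PM mice lay below both vehicle mice. The difference between the plasma cell groups and the granulocytic cells was not tested. Neutrophil genes took 348 to 384 per mille of non-immunoglobulin UMIs in neutrophils and 92.5 to 120 per mille in the progenitors, without separating PM from vehicle mice in either.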

How the results depend on the processing

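Between myeloma and normal plasma cells, 27 (vehicle mice only) to 34 (no TMM scaling) members were called higher, 29 to 32 with 1 mouse left out. In the main fit 27.2% of all genes tested were called higher. Counts of the alternatives were not set against the shares of all genes in the same fits. Members called lower were 2, but 1 without TMM scaling or without cycling cells, and the median moved to 1.41 without TMM. Signs turned only for genes that were not called or, for Psme2b, in the interaction. Psme4 was at -0.019 with DESeq2, -0.049 with immunoglobulin genes kept, -0.11 without doublets, -0.088 in vehicle mice only, -0.083 without cycling cells, -0.091 without cells with neutrophil transcripts and -0.043 to 0.076 with 1 mouse left out. Psmf1 was at -0.24 in vehicle mice only. Psmb9 was at 0.038 without TMM and -0.37 to 0.022 with 1 mouse left out. The interaction of Psme2b ranged from -0.97 to 2.64 with 1 mouse left out, the former without vehicle mouse 2.

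After PM, 0 members were called in B cells with DESeq2 or without doublets and 0 to 1 with 1 mouse left out, and 0 to 2 in neutrophils (2 without PM mouse 1, 1 without PM mouse 2). Without TMM the median was -0.15 in neutrophils and -0.10 in progenitors. With 1 mouse left out it was -0.33 to -0.16 and -0.19 to -0.10. In normal plasma cells split by cluster it was 0.050. The cause of these shifts was not tested, and the call counts were not set against those of all genes.

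As the mean over cells, the level was 3923 CPM in B cells, 2956 in basophils and eosinophils, 4887 in dendritic cells, 5683 in erythroid cells, 5054 in granulocyte-monocyte progenitors, 3977 in macrophages, 6086 in monocytes, 1790 in neutrophils and 3737 in T and NK cells. Without doublets it was 3286 in basophils and eosinophils, 3612 in macrophages, 6486 in monocytes and 3740 in T and NK cells. With immunoglobulin genes kept it was 1971 in normal plasma cells.

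Mice of the groups share only a number. The correlation of same-numbered deviations was -0.25 to 0.10 over 12 cell types. With the replicate block, 1 member was called in B cells and 0 in the other 11 types, and the median was 0.21 in myeloma cells and -0.24 in neutrophils. With the crossed pairing, added after seeing the data, the member calls were also 1 in B cells and 0 elsewhere, while the genes called higher in neutrophils numbered 634, against 574 without it. Few plasma cells and 2 mice a group limit the PM comparison.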

Other observations

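The 73 plasma-like cells that met neither immunoglobulin rule (6 and 21 from vehicle mice, 22 and 24 from mice on PM) held 8454, 7536, 9881 and 9191 CPM of the proteasome subunit genes. In each mouse the value lay above that of the normal plasma cells and below that of the myeloma cells. Their median depth was 17967 UMIs per cell in vehicle mouse 1 and 1202 to 2202 in the other mice.

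The 20S and 19S genes did not order the cell types alike. The 19S genes reached 2811 ± 154 CPM in erythroid cells and 2085 ± 63 CPM in monocytes, with no overlap between the mice. The 20S genes were at 2843 ± 328 CPM and 3453 ± 139 CPM in the same types, again with no overlap, but with monocytes higher. Psme1 and Psme2 together were highest in dendritic cells (767 ± 90 CPM), followed by T and NK cells (597 ± 50 CPM) and monocytes (574 ± 45 CPM), which overlapped and changed places in both PM mice, and were at 376 ± 22 CPM in myeloma cells.

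The share of Psmb8 in the UMIs of Psmb8 and Psmb5 was 46.2% and 44.9% in the neutrophils of vehicle mice and 55.7% and 54.4% after PM. In granulocyte-monocyte progenitors it was 47.3% and 44.1% against 53.4% and 50.8%, and in monocytes 59.5% and 58.0% against 64.8% and 63.3%. In myeloma cells it did not separate the groups, at 57.0% and 50.6% against 54.3% and 51.4%. Psmb8 itself was called after PM in none of these types. The share of Psmb10 beside Psmb7 was lower after PM in the progenitors, at 36.7% and 34.8% against 34.0% and 33.2%. It was higher in neutrophils, at 14.1% and 17.1% against 19.2% and 18.7%, and did not separate the groups in monocytes. The Psmb9 share was higher in both PM mice in the progenitors and monocytes, but did not separate them in neutrophils. The share of Psmb9 beside Psmb6 in myeloma cells was lower in both PM mice (29.6% and 22.6%) than in both vehicle mice (41.9% and 31.5%). Psmb9 itself was not called there (log2 fold change -0.30, edgeR adjusted p = 0.82). The Psmb10 share was also lower after PM in normal plasma cells, at 55.7% and 43.8% against 36.2% and 43.4%. In macrophages the Psmb10 and Psmb8 shares were lower in both PM mice. No share was tested for an effect of PM. An exact permutation test cannot go below a p of 0.333 here, so such separations arise often by chance.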
